A study of Drosophila melanogaster with 2 samples.

Results

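The serpin genes are the 27 genes of a table of 13989 whose symbol begins with Spn followed by a digit. The gene listed as Spn, which encodes the scaffold protein Spinophilin, and the spindle genes (spn-A and others) are not serpins and fall outside this pattern, as do the serpin genes nec and Acp76A, whose names differ. RNA was sequenced from wing discs, the epithelial sacs of the larva from which wing blade, hinge and notum develop, taken from wandering third-instar Drosophila melanogaster. The genotype called GFP_Tai here (en>GFP,Tai in the labels) expressed Taiman (Tai), a coactivator of the ecdysone receptor, together with green fluorescent protein. The control genotype, called GFP (en>GFP), expressed the fluorescent protein without added Tai. The engrailed (en) driver shared by both acts in the posterior compartment, whereas whole discs were taken, so each value averages over posterior cells and over anterior cells outside the driver's domain. Both genotypes were grown at 25 °C with 12 h of light. RNA of 80 to 100 discs was pooled per genotype, and each genotype has 1 FPKM value per gene (sequenced fragments scaled to transcript length and library size). Triplicates are mentioned in the series design, but the values analysed here are 1 per genotype. The spread between replicates is therefore unknown for every difference given, and the genotypes were not tested against each other.

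Serpins are protease inhibitors that act as bait. The target protease cuts an exposed loop, the serpin snaps into another shape, and the protease is trapped on it and lost. In insects secreted serpins hold back the chains of serine proteases in the body fluid that lead to the Toll ligand Spätzle and to melanin formation by phenoloxidase. Some serpins act inside cells in the secretory pathway, and some members of the family no longer inhibit proteases. In the wing, serpins have been linked to unfolding of the adult blade, and in discs to the elimination of unfit clones.

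Among the serpins, Spn100A stood furthest apart, with an FPKM of 269.9 in GFP_Tai discs against 74.7 in GFP discs. Spn43Aa, the most abundant serpin in both genotypes, had 699 FPKM in GFP_Tai discs against 416 in GFP discs. Spn28D and Spn5 were higher in GFP_Tai by ratios of 1.72 and 1.42, and Spn42De was lower with a ratio of 0.665. Spn27A, the inhibitor that limits both embryonic Toll signaling and melanization, was nearly level at 194 FPKM in GFP_Tai and 199.96 FPKM in GFP. A further 7 serpins were listed at 0 in both genotypes.

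Of the 27 serpin genes, 13 reached 1 FPKM in either genotype, 7 had values below 1 in both, and 7 were listed at 0 in both. The share that reached 1 FPKM was 48.1% among serpins and 59.2% among all genes, and the share listed at 0 in both was 25.9% among serpins and 21.3% among all genes. Of the 13, 1 gene, Spn1, reached the minimum through the GFP library alone, and 0 did so through GFP_Tai alone. Differences are given as log2((GFP_Tai FPKM + 1) / (GFP FPKM + 1)), a scale that understates the difference of low genes. On this scale 1 of the 13 serpins, Spn100A, was at least 2-fold higher in GFP_Tai (7.69%), beside 6.31% of the 8275 genes that reached 1 FPKM. By the same threshold 0 serpins were at least 2-fold lower, beside 1.81% of all genes. The share of serpins higher by 2-fold was thus close to that of all genes.

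Of the 13 serpins, 7 had a difference above 0 and 6 below, and 46.2% of all genes lay above 0. The median difference of the 13 was 0.09, and that of all genes was -0.02. Over all 27 serpins, with no minimum, the median was 0, as it was for all genes. The extremes were 1.84 for Spn100A and -0.54 for Spn42De. A lower threshold of 1.5-fold added Spn43Aa and Spn28D, so that 3 of 13 serpins were higher (23.1%, beside 9.82% of all genes) and 0 were lower (beside 3.93%).

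**Figure D1:**
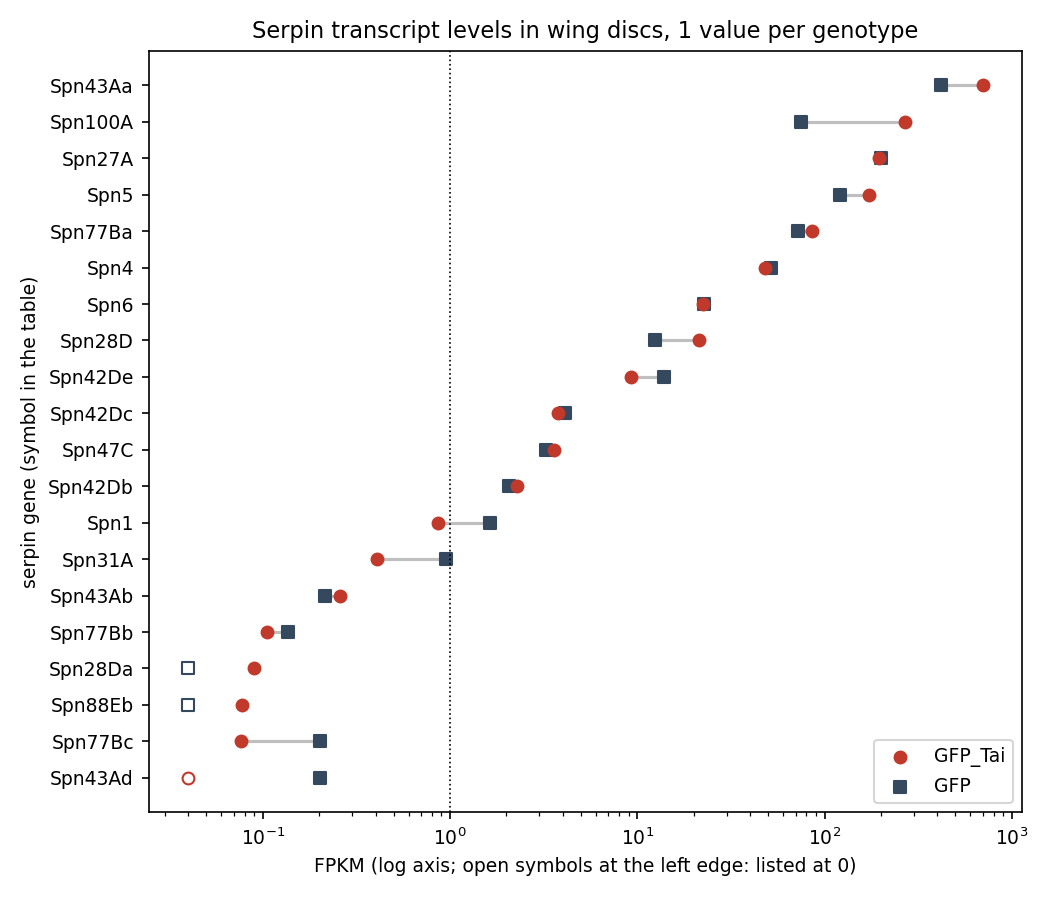
FPKM of the 20 serpin genes above 0 in either genotype, on a log axis, with circles for GFP_Tai, squares for GFP and open symbols at the left edge for values listed at 0. The genes span from under 0.1 FPKM to 699 FPKM, and the widest gap among the abundant genes is that of Spn100A.

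The number of fragments behind each value was estimated from the steps between low values, at 10620686 fragments for the GFP_Tai library and 8128011 for the GFP library. Exact 95% intervals of each ratio were taken from the split of these fragments between the libraries, and they cover counting error only. By this measure 5 of the 13 serpins had an interval above 1, beside 22.0% of all genes with an estimate, 1 had an interval below 1, beside 24.7%, and 7 had intervals that held 1. The 5 were Spn100A, Spn43Aa, Spn28D, Spn5 and Spn77Ba, and the 1 below was Spn42De.

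**Figure D2:**
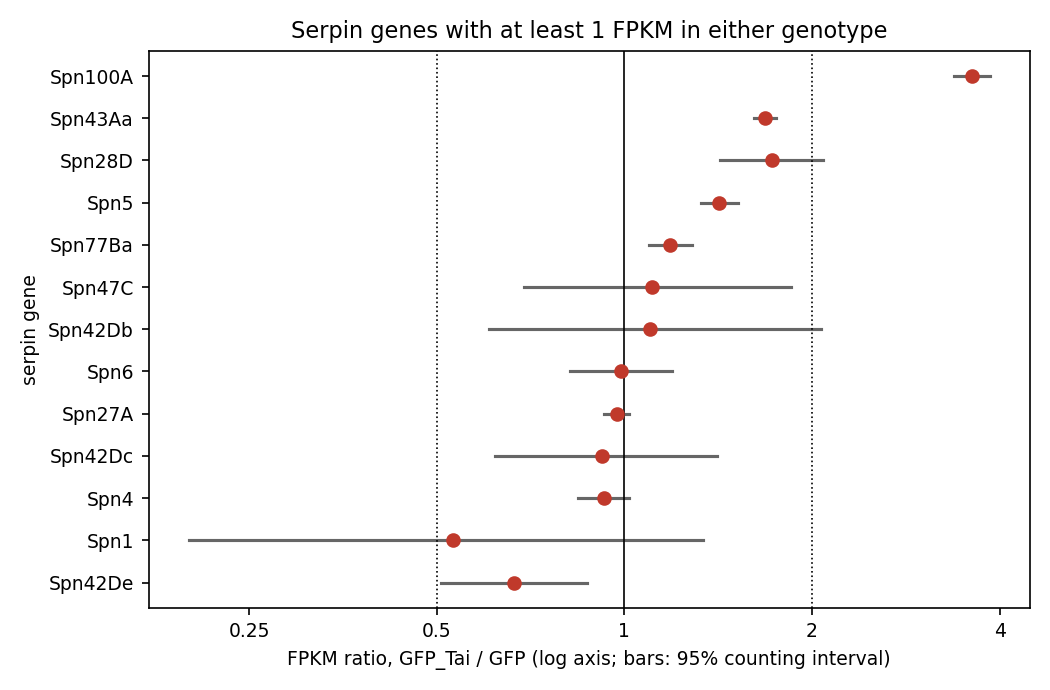
Ratio of FPKM in GFP_Tai to FPKM in GFP for the 13 serpin genes with at least 1 FPKM in either genotype, on a log axis, with exact 95% counting intervals as bars and dotted lines at 2-fold. Spn100A alone has a point beyond a dotted line, at 3.61, while the interval of Spn1 runs from 0.1999 to 1.34.

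Spn100A (FBgn0039795, 3R:30690642-30692768 in BDGP6, plus strand) encodes a protein of 649 residues, the longest of the 27. An estimated 5220 fragments in GFP_Tai and 1106 in GFP lay behind its ratio of 3.61, which gives a counting interval of 3.38 to 3.86. In the authors' deposited table it had p = 0.0281 and q = 0.999524, and 0 of the 14 tested serpins were called (beside 0.131% of all tested genes). Only 18 of the 8374 genes tested in the authors' deposited table had a lower p, and 39 had a p under 0.05 (0.466%), among them 1 serpin. Of all genes that reached 1 FPKM, 272 (3.29%) had a larger log2 difference than Spn100A. By level, Spn100A was the 334th gene of the GFP_Tai table column and the 1501st of the GFP column. Its nearest protein-coding neighbours in the table, CG12069 at 803 bp and CG34433 at 39783 bp, were both listed at 0 in both genotypes.

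**Figure D3:**
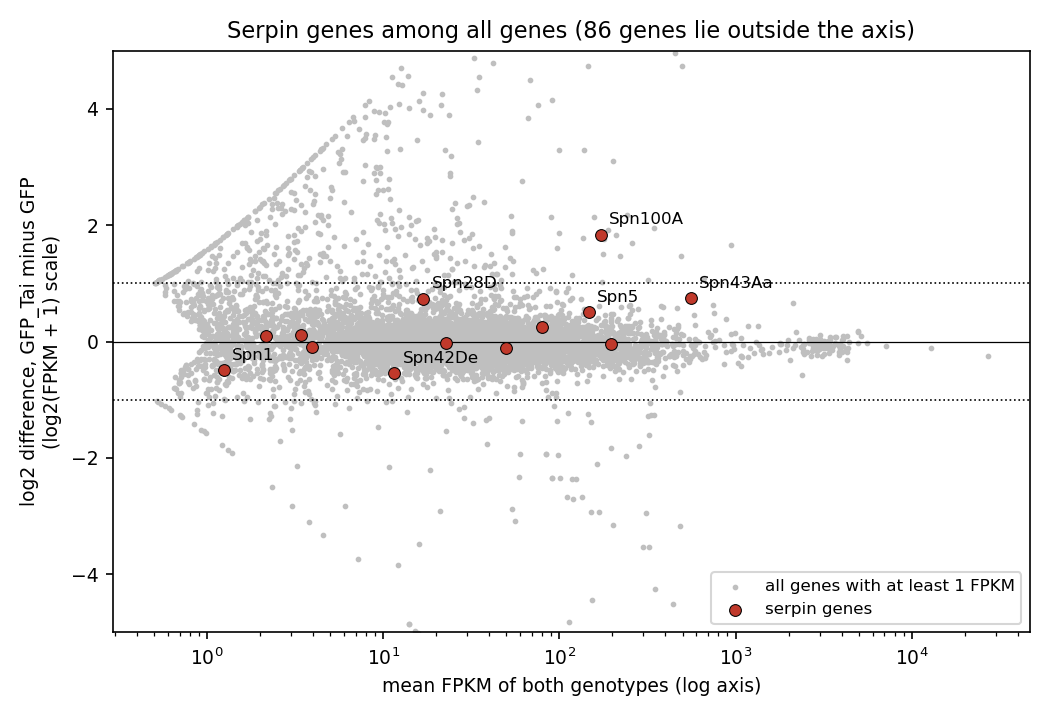
Log2 difference between GFP_Tai and GFP against the mean FPKM of both (log axis) for 8275 genes, with the 13 serpins in red and dotted lines at 2-fold; 86 genes lie beyond 5 on the vertical axis. Spn100A lies at 1.84, above the upper dotted line, and the other serpins lie between the lines.

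Spn43Aa (FBgn0024294, 2R:7147692-7149289 in BDGP6, plus strand) ranked 144th of all genes by level in GFP_Tai and 217th in GFP. Its ratio was 1.68 (counting interval 1.61 to 1.75), which rested on about 7709 fragments in GFP_Tai and 3511 in GFP. The authors' deposited table gave it p = 0.33055, the lowest of the tested serpins after Spn100A. Smaller than that of Spn100A as a ratio, its difference was the larger in FPKM. Summed over the 27 serpins, the level was 1535 FPKM in GFP_Tai and 998 FPKM in GFP, a ratio of 1.54. Spn43Aa and Spn100A together made up 89.2% of that difference. Without this pair the sums were 565 FPKM in GFP_Tai and 507 FPKM in GFP, a ratio of 1.11.

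The summed level rested on few genes. The 5 most abundant serpins held 92.7% of it in GFP_Tai and 88.6% in GFP, and they were the same genes, Spn43Aa, Spn100A, Spn27A, Spn5 and Spn77Ba. Spn100A held 17.6% of the sum in GFP_Tai and 7.49% in GFP, and was the 2nd most abundant serpin in GFP_Tai and the 4th in GFP. Spn27A held 12.7% in GFP_Tai and 20.0% in GFP with a nearly level FPKM. Of the 13 serpins, 8 had the same rank of level in both genotypes. As a share of the FPKM of the whole table, the serpins made up 0.199% in GFP_Tai and 0.124% in GFP.

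**Figure D4:**
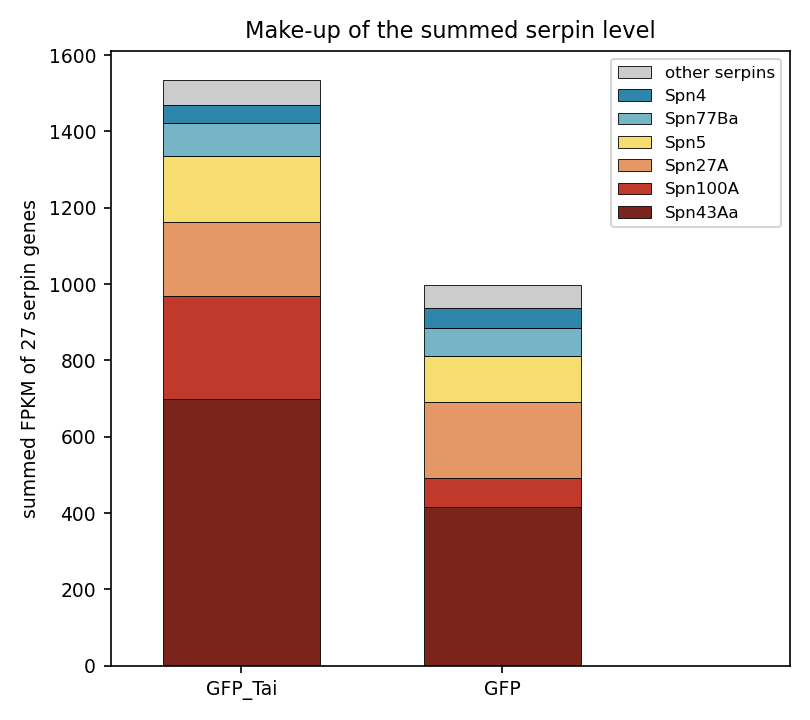
Summed FPKM of the 27 serpin genes in GFP_Tai (left bar) and GFP (right bar), stacked by gene. The sums are 1535 and 998 FPKM, and the parts of Spn43Aa and Spn100A account for most of the gap.

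Several serpins are known to restrain Toll signaling or melanization. Spn27A, which inhibits the protease Easter upstream of Toll in the embryo and controls phenoloxidase activation in the blood, had a ratio of 0.973 (counting interval 0.929 to 1.02) on an estimated 4271 fragments in GFP_Tai and 3361 in GFP. Spn77Ba, which keeps melanization in check in the tracheal airways, had 85.9 FPKM in GFP_Tai and 72.5 in GFP (ratio 1.19, interval 1.10 to 1.28). Spn28D, now named Spn28Dc and likewise a regulator of phenoloxidase at wounds and in the airways, had 21.3 FPKM in GFP_Tai and 12.4 in GFP. Its ratio of 1.72 had an interval of 1.42 to 2.08, from an estimated 357 fragments in GFP_Tai and 159 in GFP. The authors' deposited table gave p = 0.96485 for Spn27A, 0.8025 for Spn77Ba and 0.6652 for Spn28D.

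Spn5, now named Spn88Ea, restrains Toll activation, is needed for unfolding of the adult wing and acts in cell competition in discs. It had 173 FPKM in GFP_Tai and 121 FPKM in GFP. The ratio was 1.42 (interval 1.33 to 1.52), on an estimated 2393 fragments in GFP_Tai and 1288 in GFP, and p was 0.575 in the authors' deposited table. Spn1, now Spn42Dd, a repressor of the Toll response to fungi, had 0.864 FPKM in GFP_Tai and 1.63 FPKM in GFP. These values rested on an estimated 9 fragments in GFP_Tai and 13 in GFP, and the ratio of 0.530 had an interval of 0.1999 to 1.34, which held equal levels. Its p was 0.6515 in the authors' deposited table. The serpin gene nec, which holds back the protease Persephone in front of Toll and falls outside the symbol pattern, had 1.27 FPKM in GFP_Tai and 0.525 FPKM in GFP. With an estimated 19 fragments in GFP_Tai and 6 in GFP, its ratio of 2.42 had an interval of 0.931 to 7.41, which also held 1, and it passed the minimum through the GFP_Tai library alone.

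Spn4, now Spn42Da, encodes secreted isoforms and an isoform kept in the secretory pathway that inhibits furin-like proprotein convertases. The table holds 1 value for its 11 annotated transcripts. It had 48.0 FPKM in GFP_Tai and 51.8 FPKM in GFP, a ratio of 0.927 with an interval of 0.844 to 1.02, and the isoforms could not be compared. Of the convertase genes, Fur1 had 23.8 FPKM in GFP_Tai and 21.9 in GFP, and Fur2 had 60.3 in GFP_Tai and 52.0 in GFP.

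The remaining serpins above 1 FPKM were low to moderate. Spn6, now Spn55B, had 22.5 FPKM in GFP_Tai and 22.8 FPKM in GFP (ratio 0.986, interval 0.818 to 1.19). Spn42De had 9.21 FPKM in GFP_Tai and 13.8 FPKM in GFP (ratio 0.665, interval 0.508 to 0.870), on an estimated 106 fragments in GFP_Tai and 122 in GFP. It was the serpin with the lowest log2 difference, though short of the 1.5-fold threshold on that scale, and its p was 0.55895 in the authors' deposited table. Spn42Dc had 3.76 FPKM in GFP_Tai and 4.09 in GFP. Spn47C had 3.60 FPKM in GFP_Tai and 3.25 in GFP (ratio 1.11, interval 0.690 to 1.85), with p = 0.84765 in the authors' deposited table. For Spn42Db the values were 2.27 FPKM in GFP_Tai and 2.07 in GFP. Spn42Dc, Spn47C and Spn42Db each rested on 20 to 56 fragments per library, and their intervals held 1.

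The 7 serpins below 1 FPKM in both genotypes rested on few fragments. Spn31A had an estimated 5 fragments in GFP_Tai and 9 in GFP (0.407 FPKM in GFP_Tai and 0.956 in GFP), just under the minimum, and its interval of 0.112 to 1.41 held 1. Spn43Ab had an estimated 3 fragments in GFP_Tai and 2 in GFP, Spn77Bb 1 in each, and Spn77Bc 1 in GFP_Tai and 2 in GFP. Spn28Da and Spn88Eb had 1 fragment in GFP_Tai and were listed at 0 in GFP, and Spn43Ad was listed at 0 in GFP_Tai and had 2 fragments in GFP. No ratio is given against a listed 0, which can also be a failed estimate. Spn2 (Spn28F), Spn3 (Spn38F), Spn7 (Spn28B), Spn28Db, Spn53F, Spn75F and Spn85F were listed at 0 in both genotypes. For these 7, a count of 3 fragments would correspond to 0.165 to 0.341 FPKM in GFP_Tai and 0.216 to 0.446 FPKM in GFP. A listed 0 does not exclude levels below these, although other serpins were listed above 0 from 1 fragment. The second-longest serpin, Spn85F with 640 residues, is among the undetected ones, unlike Spn100A.

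Many serpins lie side by side in the genome, and within these clusters 1 gene usually held nearly all of the signal. Of the 27 serpins, 15 fell into 5 clusters with gaps of at most 50 kb. In the 43A cluster (2R:7147692-7158241 in BDGP6), Spn43Aa held 99.8% of the summed FPKM in GFP_Tai and likewise 99.8% in GFP, while Spn43Ab, Spn43Ad and nec shared the rest. In the 77B cluster (3L:20317190-20344319), Spn77Ba held 99.8% in GFP_Tai and 99.5% in GFP. In the pair of Spn5 and Spn88Eb (3R:15203069-15208762), 255 bp apart, Spn5 held 99.96% in GFP_Tai and 100% in GFP. The 42D cluster (2R:6875906-6888262) differed in that all 5 of its genes reached 1 FPKM in at least 1 genotype. There Spn4 held 74.9% in GFP_Tai and 70.5% in GFP, and Spn42De held 14.4% in GFP_Tai and 18.9% in GFP. The pair Spn28Da and Spn28Db had 1 estimated fragment in all.

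**Figure D5:**
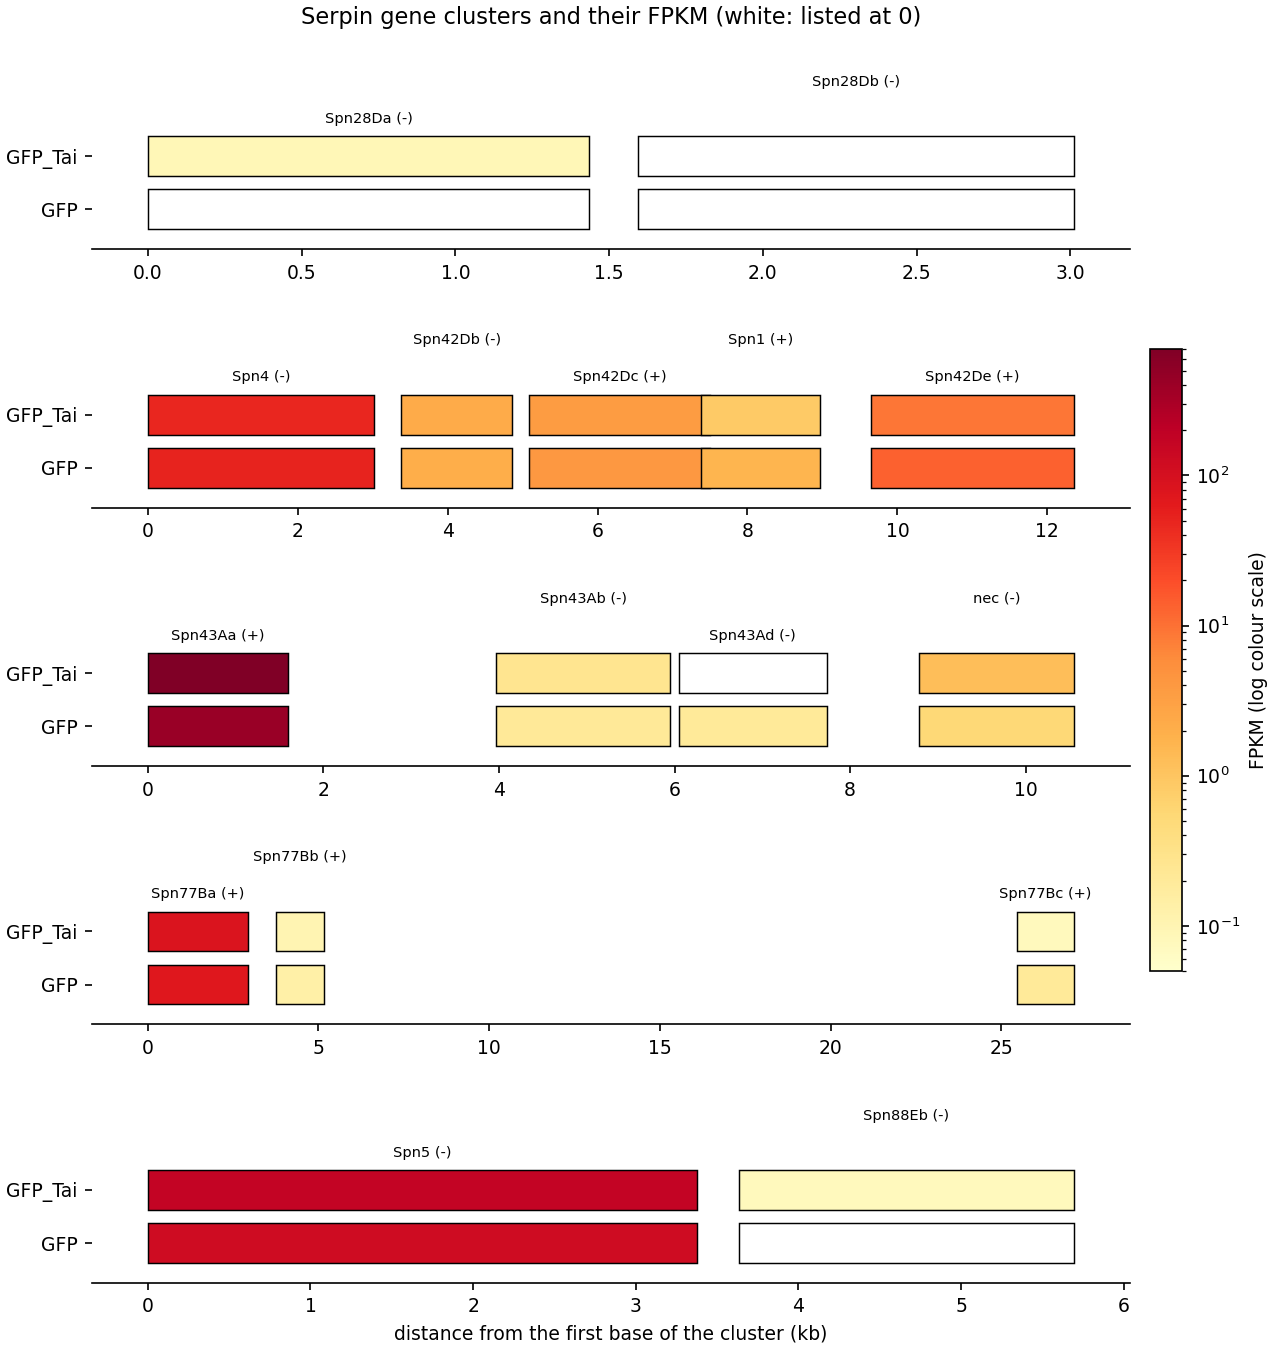
Gene spans in the 5 serpin clusters, as distance from the first base of each cluster in kb, with the FPKM in GFP_Tai (upper row) and GFP (lower row) as a log colour scale, white for values listed at 0 and the strand in parentheses. Dark spans stand alone next to pale ones in the clusters of Spn43Aa, Spn77Ba and Spn5, whereas all 5 spans of the 42D cluster carry signal; nec is drawn although it falls outside the symbol pattern.

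Differences varied among neighbouring serpins. Within the 42D cluster the log2 differences were -0.11 for Spn4, 0.09 for Spn42Db, -0.10 for Spn42Dc, -0.50 for Spn1 and -0.54 for Spn42De. The counting intervals of these 5 ratios all overlapped each other, and that of Spn42De alone did not hold equal levels. By chromosome arm, 8 of 11 serpins on 2R reached 1 FPKM, and 5 of the 16 elsewhere did. Among all genes placed on the annotation, the shares were 60.0% on 2R and 59.5% elsewhere.

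Some serpin values are uncertain because genes overlap and the library kit did not mark strand. Spn1 and Spn42Dc share 63 bp of exon on the same strand and 1 locus entry in the table, so fragments there can count for either. An antisense RNA gene overlaps 10.5% of the exon bases of Spn4 and 25.6% of those of Spn42Db. For Spn43Aa, 8.96% of the exon bases overlap CG12828, which was listed at 0 in both genotypes. Of the serpins listed at 0, Spn53F has 100% of its exon bases overlapped by an antisense RNA gene, and Spn85F shares 273 bp (11.9%) with CG5359, which had 8.74 FPKM in GFP_Tai and 5.61 FPKM in GFP. For Spn100A the annotation holds 0 overlapping genes.

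The proteases and enzymes that insect serpins meet were compared next, as 18 genes of which 13 reached 1 FPKM. By the 2-fold threshold on the log2(FPKM + 1) scale, 0 were higher in GFP_Tai and 1 was lower, beside 6.31% and 1.81% of all genes. Their median log2 difference was -0.09, but 0.08 at a minimum of 5 FPKM, beside -0.02 for all genes. SPE, which cleaves Spätzle into its active form, had 1.26 FPKM in GFP_Tai and 4.69 FPKM in GFP (ratio 0.268, interval 0.135 to 0.503). Of the melanization proteases, MP1 had 51.5 FPKM in GFP_Tai and 69.0 FPKM in GFP, and Sp7 had 4.11 in GFP_Tai and 2.69 in GFP. Grass, a protease of the microbial recognition branch in front of Toll, had 11.1 FPKM in GFP_Tai and 15.5 FPKM in GFP. The prophenoloxidase genes PPO1, PPO2 and PPO3 had 0.896 to 4.24 FPKM in GFP_Tai and 1.05 to 4.59 FPKM in GFP.

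Of 13 genes listed as other protease inhibitors, nec and Acp76A included, 12 were found in the table and 8 reached 1 FPKM. The 8 include crim, which is not a known protease inhibitor, with 121.7 FPKM in GFP_Tai and 115.9 in GFP. On the log2(FPKM + 1) scale 0 of the 8 were at least 2-fold higher or lower, beside 6.31% and 1.81% of all genes, and their median was 0.18, beside -0.02. The gene nec, with a plain ratio of 2.42, lay at 0.58 on that scale. The largest log2(FPKM + 1) difference, 0.82, was that of Timp, the inhibitor of matrix metalloproteases, with 13.0 FPKM in GFP_Tai and 6.96 FPKM in GFP (ratio 1.88, interval 1.43 to 2.47). Of the thioester proteins, which resemble the protease trap alpha-2-macroglobulin, Tep2 had 10.3 FPKM in GFP_Tai and 7.90 in GFP, and Tep4 had 44.7 in GFP_Tai and 56.1 in GFP. Acp76A, a serpin gene of the male accessory gland, was listed at 0 in both. The 8 genes of the Toll ligand, receptor and transducers all reached 1 FPKM. On the log2(FPKM + 1) scale 1 of them, Dif, was at least 2-fold higher and 0 were lower, beside 6.31% and 1.81% of all genes, with a median of 0.08, beside -0.02. Dif, a transcription factor of the pathway, had 8.24 FPKM in GFP_Tai and 3.49 in GFP, a ratio of 2.36 and a log2 difference of 1.04. The ligand gene spz had 4.74 FPKM in GFP_Tai and 1.93 in GFP, a ratio of 2.46, and with a log2 difference of 0.97 it lay just under the threshold. The receptor gene Tl had 25.3 in GFP_Tai and 19.8 in GFP, and the adaptor gene Myd88 had 22.5 in GFP_Tai and 21.1 in GFP.

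The genotype and the tissue were checked against marker genes. The tai gene had 879 FPKM in GFP_Tai and 27.1 FPKM in GFP (ratio 32.4, counting interval 30.9 to 34.0), and p = 0.0002 in the authors' deposited table. The marker counts that follow are on the log2(FPKM + 1) scale, on which 6.31% of all genes were at least 2-fold higher and 1.81% at least 2-fold lower. All 8 wing disc markers were detected and 0 were 2-fold different, among them sd with 107.6 FPKM in GFP_Tai and 111.7 in GFP, and ap with 91.7 in GFP_Tai and 99.3 in GFP. Among these markers hh, the ligand gene of the posterior compartment, had 52.2 FPKM in GFP_Tai and 39.8 in GFP (ratio 1.31, interval 1.19 to 1.44). For en, the gene of the driver, the values were 46.8 FPKM in GFP_Tai and 43.2 in GFP (ratio 1.08). The interval for en, 0.994 to 1.18, held 1. The gene nub had 63.0 FPKM in GFP_Tai and 74.8 in GFP (ratio 0.842, interval 0.797 to 0.889), and ptc had 47.0 FPKM in GFP_Tai and 54.0 in GFP (ratio 0.870, interval 0.823 to 0.920). Markers of other tissues moved with the genotype in part. Of 5 tracheal markers 3 were at least 2-fold higher in GFP_Tai, with verm at 720 FPKM in GFP_Tai and 259 in GFP and Gasp at 328 in GFP_Tai and 90.9 in GFP. The 5 tracheal markers summed to 1334 FPKM in GFP_Tai and 466 FPKM in GFP, and most of either sum came from those 3 genes. The tracheal regulators trh and btl were nearly level, with 20.2 and 3.45 FPKM in GFP_Tai and 21.3 and 3.47 FPKM in GFP.

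Fat body markers, 1 of 7 at least 2-fold higher, summed to 35.1 FPKM in GFP_Tai and 23.2 FPKM in GFP, with Lsp2 at 12.2 in GFP_Tai and 9.25 in GFP and Fbp1 at 8.41 in GFP_Tai and 6.01 in GFP. The fat body gene apolpp had a lower value in GFP_Tai, with 1.09 FPKM in GFP_Tai and 1.48 in GFP (ratio 0.734, interval 0.569 to 0.938). Blood cell markers, 1 of 6 at least 2-fold higher, summed to 16.3 FPKM in GFP_Tai and 8.43 FPKM in GFP, with Pxn at 4.63 in GFP_Tai and 3.17 in GFP and He at 4.30 in GFP_Tai and 2.67 in GFP. All 6 had a higher value in GFP_Tai, with ratios of 1.46 to 6.79. Of this list NimC1 had 3.66 FPKM in GFP_Tai and 0.539 in GFP (ratio 6.79, interval 3.27 to 16.3), and srp had 1.09 FPKM in GFP_Tai and 0.466 in GFP (ratio 2.33, interval 1.31 to 4.42). Gut protease markers, 4 of 5 at least 2-fold higher, summed to 217 FPKM in GFP_Tai, with Jon65Aiv at 121 and Jon65Aiii at 85.0, and all 5 were listed at 0 in GFP. The betaTry gene was listed at 0 in both. Muscle precursor markers, 0 of 4 different by 2-fold, summed to 114.5 FPKM in GFP_Tai and 110.9 FPKM in GFP, with how at 68.1 in GFP_Tai and 59.4 in GFP and twi at 18.7 in GFP_Tai and 22.0 in GFP. The part of these tissues in the serpin values was not tested, and more cells of a type cannot be told apart from more RNA per cell in pooled discs.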

How the data were processed

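Per the labels' protocols, each library came from 4 µg of RNA depleted of ribosomal RNA. The submitters' processing notes list Cuffdiff 2.2.1, TopHat2 2.0.12, CASAVA 1.4 and, as build, dm6. Which annotation and filters were applied is not given in the sources used here. FPKM values as deposited by the authors, 1 for each gene in each genotype, were used without rescaling. Quoted p-values and q-values (called at q under 0.05) are the authors', per the file headers. Table loci did not lie on dm6 (starts differed by 4112496 bp on 2R), so coordinates come from the BDGP6 annotation (Ensembl release 115) by symbol or RefSeq synonym. All 27 serpins matched, 8 under another current symbol, and all lay at the matching place.

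With Python 3.11.15, pandas 2.3.3 and scipy 1.17.1, differences used a pseudocount of 1, a minimum of 1 FPKM in either genotype and a 2-fold threshold. The ratio between libraries, 0.7653, was the commonest among low genes and was shared by 286 of them. Depth came from 180 single-transcript genes at that ratio, with transcript lengths within the table's loci less 215 nt. A cluster of 64 of these genes set the value of 1 fragment. Of low single-transcript genes, 85.96% in GFP_Tai and 86.7% in GFP then came out whole within 0.1 fragments. Since not all did, these are estimates and no count test was run. The steps were also run on simulated counts, drawn with depths and a length offset close to those found here and 1 length per gene. That run is therefore no independent check of the fragment estimates. Named genes followed a rule: every serpin, tai, and the members of each list with the largest differences or, for markers, the highest levels. Fur1, Fur2, trh, btl, apolpp, NimC1, srp, hh, en, nub, ptc, crim and the prophenoloxidases were added after their values were seen. The members and lists were chosen with earlier results of these data known. No nucleotide or protein sequences were used here.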

Additional observations from a re-analysis of the deposited data

How the results depend on the processing

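Alternatives were pseudocounts of 0.1 and 5, minimums of 0.5 and 5 FPKM or none, and centring on the median of all genes. Thresholds of 1.5-fold and 3-fold and the addition of nec and Acp76A were further alternatives. For the fragment estimate, the alternative was transcript length within the table's loci with nothing subtracted. Across 48 results the alternatives gave 128 values, of which 9 moved beyond the tolerance of their result and 0 were labelled reversed. Sign changes within the tolerance were not counted as reversals. The median of the proteases and enzymes that insect serpins meet changed sign, from -0.09 to 0.08 at a minimum of 5 FPKM. The 1 serpin at least 2-fold higher became 3 at 1.5-fold and was 1 in the other settings, and the number lower was 0 in every setting run. The serpin median of 0.09 ranged from 0, without a minimum, to 0.24, at a minimum of 5. Over all genes, the 522 higher and 150 lower genes became 284 and 97 at the pseudocount of 5. They became 813 and 325 at 1.5-fold, and 324 and 87 at 3-fold. The median of all genes was -0.034 at a minimum of 5 and 0 without a minimum. Of the single serpins, Spn6 alone changed sign, to 0.004 after centring. No paired analysis was possible because each genotype has 1 value per gene. With 1 value per genotype, depth limits the serpins under 1 FPKM, and counting intervals leave out variation between discs and libraries.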
